A study of Mus musculus with 12 samples.

Results

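The collagen chain genes were taken from the deposited table of gene expression in colonic adenomas of ApcMin/+ mice as every gene whose name is Col, a number, the letter a and a number. They were 44 of 25705 genes, of which 11 encode fibrillar chains, 8 encode basement membrane chains (types IV, XV and XVIII) and 25 encode other chains. All 44 gene IDs carry the same symbol in the GENCODE M21 annotation of mm10. RNA was sequenced from adenomas of C57BL/6J mice aged 150 to 160 days, 3 libraries in each of 4 groups. The Tet1-null group is Tet1-/- Tdg+/+ ApcMin/+, the double-heterozygous group is Tet1+/- TdgN151A/+ ApcMin/+, the Tdg-heterozygous group is Tet1+/+ TdgN151A/+ ApcMin/+ and the control group is Tet1+/+ Tdg+/+ ApcMin/+. Every group therefore carries ApcMin, a truncating allele of the tumour suppressor Apc, and no tissue without it was compared here. TET1 converts methylated cytosine into oxidised forms, and TDG is the glycosylase that cuts some of those forms, not all, out of DNA. Nothing in the labels ties each sample to its own animal, so p-values measure the spread between these samples. A library is called by its group and its column number there, 0 to 2.

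Values are FPKM, which corrects fragment numbers for transcript length and sequencing yield, so levels can be compared between genes. FPKM sums ran from 663551 to 977282 per library, and 13692 to 14384 genes per library reached 1 FPKM. The number of reads is unknown. Tet1 itself had 0.621, 0.199 and 0.163 FPKM in the libraries labelled Tet1-null and 0.403, 0.478 and 0.422 FPKM in controls. The highest of all 12 values belongs to the library labelled Tet1-null 0, so these low levels of the whole gene do not check the genotype labels. Sex was uneven: Xist, which marks female samples, exceeded 10 FPKM in 1 Tet1-null library, 0 double-heterozygous libraries, 2 Tdg-heterozygous libraries and 2 controls. The epithelial Wnt target Axin2 stood at 9.98 FPKM in Tet1-null library 1, at 21.1 FPKM in Tdg-heterozygous library 2 and at 62.9 FPKM in double-heterozygous library 0. It lay between 96.1 and 173 FPKM in the 9 other libraries, so these 3 libraries were the lowest for Axin2. Lgr5 did not give the same 3. It had 5.14 FPKM in Tet1-null library 1, 13.5 FPKM in Tdg-heterozygous library 2 and 13.6 FPKM in Tet1-null library 0, but 53.8 FPKM in double-heterozygous library 0. Results are also given without the 3 libraries of lowest Axin2 where that alters a direction.

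Collagens are extracellular proteins built of chains that wind around each other as a triple helix. Fibrillar chains form the rope-like fibres of connective tissue, which in the gut wall are made mainly by fibroblasts and smooth muscle cells. Type IV chains form the sheet under epithelia and around vessels, and the remaining types decorate fibrils, form beaded filaments or anchor cells to the matrix. The samples are whole adenomas, which hold epithelium and stroma, so fewer stromal cells and less collagen RNA per cell cannot be told apart.

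In the annotation, several chain genes stand side by side. Col4a1 and Col4a2, the chains of the common type IV trimer, lie head to head on chromosome 8 with starts 21 bases apart. Col4a3 and Col4a4 start 72 bases apart on chromosome 1, and Col4a5 and Col4a6 start 1309 bases apart on the X chromosome. Col3a1 and Col5a2 lie tail to tail on chromosome 1, and Col6a1 and Col6a2 follow each other on chromosome 10. Promoter windows of 250 bases before and 50 bases after the start were found in the RefSeq table (GRCm38.p6) for 35 of the 44 members. Motifs were searched on both strands. The TATA box was searched with the letters TATAAA, and the next motif, a CCAAT box, by its name. For the GC box the letters were GGGCGG. The core of sites for the Wnt-pathway factors TCF and LEF was searched as CTTTGA, and matches of different motifs can share bases at their edges.

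The first pair of windows is shown because the genes share it. The Col4a1 window is chr8:11312777-11313076 on the minus strand and the Col4a2 window is chr8:11312555-11312854 on the plus strand, and 78 bases lie in both. Capitals mark motif matches on either strand, and both sequences run 5′ to 3′ along the gene's own strand. Their CCAAT boxes lie at -145 for Col4a1 and at -32 for Col4a2, counted from the start.
Col4a1: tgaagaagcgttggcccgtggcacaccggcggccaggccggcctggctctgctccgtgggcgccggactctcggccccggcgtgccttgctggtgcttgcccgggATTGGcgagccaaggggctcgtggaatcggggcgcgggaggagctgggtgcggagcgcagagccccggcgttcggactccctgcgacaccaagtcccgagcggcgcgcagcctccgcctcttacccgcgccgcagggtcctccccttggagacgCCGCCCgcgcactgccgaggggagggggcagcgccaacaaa
Col4a2: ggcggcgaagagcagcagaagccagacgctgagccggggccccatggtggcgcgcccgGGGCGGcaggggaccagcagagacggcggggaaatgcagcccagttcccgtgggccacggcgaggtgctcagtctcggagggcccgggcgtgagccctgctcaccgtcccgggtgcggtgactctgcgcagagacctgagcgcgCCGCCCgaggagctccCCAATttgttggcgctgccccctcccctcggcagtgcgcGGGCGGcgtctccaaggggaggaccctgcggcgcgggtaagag

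Col1a2 (chr6:4505368-4505667, plus strand) and Col3a1 (chr1:45311288-45311587, plus strand) are shown because they are among the most abundant chains. The RefSeq start of Col1a2 used here lies inside the gene as GENCODE draws it. Col1a2 holds CCAAT boxes at -109 and, on the minus strand, at 1, and GC boxes at -205 and -188, while the Col3a1 window holds 1 TATA match at -117 and 0 GC boxes.
Col1a2: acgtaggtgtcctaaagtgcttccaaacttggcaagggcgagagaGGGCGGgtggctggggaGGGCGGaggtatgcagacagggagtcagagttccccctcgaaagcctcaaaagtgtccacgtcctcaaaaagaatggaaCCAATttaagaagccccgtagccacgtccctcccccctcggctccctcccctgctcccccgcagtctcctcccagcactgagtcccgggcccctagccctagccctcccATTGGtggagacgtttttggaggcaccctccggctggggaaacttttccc
Col3a1: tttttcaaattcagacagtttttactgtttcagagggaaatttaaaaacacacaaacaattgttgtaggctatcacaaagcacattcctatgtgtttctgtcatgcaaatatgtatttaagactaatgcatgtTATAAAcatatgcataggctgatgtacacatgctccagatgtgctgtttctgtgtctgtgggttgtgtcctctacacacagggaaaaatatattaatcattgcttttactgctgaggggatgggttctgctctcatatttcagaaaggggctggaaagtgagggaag

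Col9a2 (chr4:121039316-121039615, plus strand) and Col6a4 (chr9:106096642-106096941, minus strand) are shown because their levels were low in the 3 libraries of low Axin2. Col9a2 holds 3 GC boxes and a TCF/LEF core at -178, and Col6a4 holds a CCAAT box at -218 and 2 GC boxes. The RefSeq starts of both genes used here lie inside the genes as GENCODE draws them. The TCF/LEF core of Col9a2 thus lies inside the GENCODE gene and not before its start.
Col9a2: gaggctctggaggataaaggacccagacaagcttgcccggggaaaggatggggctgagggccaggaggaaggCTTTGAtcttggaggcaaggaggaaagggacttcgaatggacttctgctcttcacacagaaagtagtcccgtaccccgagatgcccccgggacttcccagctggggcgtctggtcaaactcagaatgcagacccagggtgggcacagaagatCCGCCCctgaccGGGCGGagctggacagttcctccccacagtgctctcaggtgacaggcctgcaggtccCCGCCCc
Col6a4: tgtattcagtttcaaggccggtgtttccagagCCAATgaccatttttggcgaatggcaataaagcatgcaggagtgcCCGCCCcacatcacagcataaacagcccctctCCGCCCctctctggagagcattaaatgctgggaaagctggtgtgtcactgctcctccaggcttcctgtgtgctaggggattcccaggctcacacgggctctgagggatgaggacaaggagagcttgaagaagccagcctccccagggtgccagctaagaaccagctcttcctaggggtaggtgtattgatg

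Among the members with a window, 22 of 35 hold a GC box, 13 hold a CCAAT box, 9 a TCF/LEF core and 5 a TATA match. These 35 members have 38 windows and a match in any of them counts, whereas the shares that follow are of single windows. Of 32851 windows in the table, 35.7% hold a GC box, 37.4% a CCAAT box, 16% a TCF/LEF core and 13.6% a TATA match. A match describes the letters of the window and no binding was measured.

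The collagen RNA of these adenomas was mostly of type III, I and IV. Col3a1 (ENSMUSG00000026043), the sole chain of type III collagen, was the most abundant with a mean of 71.9 FPKM over the 12 libraries, 19.7% of the mean collagen FPKM. Col4a1 followed with 36.9 FPKM, Col1a2 with 36.6 FPKM, Col1a1 with 31.4 FPKM and Col4a2 with 22.3 FPKM. These 5 genes made up 54.4% of the mean collagen FPKM, and the 12 genes with a mean of at least 10 FPKM made up 83.7%. Each of the 12 varied at least 3.04-fold from its lowest to its highest library. Col3a1 lay above Col4a1 in 12 of 12 libraries, while Col4a1 lay above Col1a2 in 6, Col1a2 above Col1a1 in 9 and Col1a1 above Col4a2 in 10.

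A member was tested for a difference between groups where it had at least 1 FPKM in at least 3 of the 12 libraries. That left 25 members, of which 8 are fibrillar, 4 are basement membrane and 13 are other chains, and 16 of the 25 reached 1 FPKM in every library. The other 19 had means of 0.000381 to 0.945 FPKM. The highest of these were Col24a1 among fibrillar chains (mean 0.692 FPKM), Col4a5 among basement membrane chains (mean 0.684 FPKM) and Col17a1 among other chains. Col17a1, the hemidesmosome collagen of epithelia, had 5.10 FPKM in Tdg-heterozygous library 2 and 0.202 to 1.10 FPKM in the others. The squamous epithelial list, 6 of 6 in the table, also summed highest there, 115 FPKM against 8.47 to 87.7 FPKM elsewhere. Most of that was Krt14, while Krt5 was listed at 0 in that library, and the part of such cells in the Col17a1 value was not tested. Col2a1, the cartilage fibril chain, averaged 0.121 FPKM, and Col6a6 was at 0 in 11 libraries.

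Among fibrillar chains, Col3a1 spread most widely in the Tet1-null and control groups and least in the Tdg-heterozygous group, and its groups overlapped. Col3a1 had 86.1, 173 and 50.9 FPKM in Tet1-null libraries 0 to 2, 75.2, 85.4 and 56.9 FPKM in double-heterozygous libraries, 47.7, 59.4 and 39.4 FPKM in Tdg-heterozygous libraries and 38.0, 60.7 and 89.8 FPKM in controls. Tet1-null library 1 stood at the top and control library 0 at the bottom of all 12. The group means ± SD (n = 3 each) were 103 ± 63.0 FPKM in Tet1-null, 72.5 ± 14.5 FPKM in double-heterozygous, 48.8 ± 10.1 FPKM in Tdg-heterozygous and 62.8 ± 26.0 FPKM in control adenomas.

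Type I collagen, whose usual trimer holds chains from both Col1a1 and Col1a2, followed the same libraries. Col1a1 (ENSMUSG00000001506) had 32.5, 67.3 and 18.7 FPKM in Tet1-null, 27.9, 58.7 and 16.8 FPKM in double-heterozygous, 24.2, 25.1 and 15.3 FPKM in Tdg-heterozygous and 10.5, 29.8 and 49.5 FPKM in control libraries. Col1a2 (ENSMUSG00000029661) had 44.6, 82.0 and 31.9 FPKM in Tet1-null, 30.9, 51.8 and 24.9 FPKM in double-heterozygous, 31.1, 24.7 and 13.0 FPKM in Tdg-heterozygous and 15.8, 34.5 and 53.9 FPKM in control libraries. Both were highest in Tet1-null library 1. Col1a1 was lowest in control library 0 and Col1a2 in Tdg-heterozygous library 2.

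Type V chains assemble with type I and help to set fibril width. Col5a2 (ENSMUSG00000026042) had 17.5, 22.9 and 9.91 FPKM in Tet1-null, 19.7, 19.0 and 7.79 FPKM in double-heterozygous, 12.7, 12.6 and 9.46 FPKM in Tdg-heterozygous and 5.86, 15.01 and 23.1 FPKM in control libraries. Its range within the control group thus spanned the values of every other library. Of the remaining tested fibrillar chains, Col5a1 ranged from 2.11 to 11.9 FPKM and Col5a3 from 0.756 to 7.13 FPKM. Summed over the 11 fibrillar genes, FPKM ran from 119.6 to 367 in Tet1-null, 113 to 236 in double-heterozygous, 90.1 to 134 in Tdg-heterozygous and 75.9 to 236 in control libraries.

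**Figure D1:**
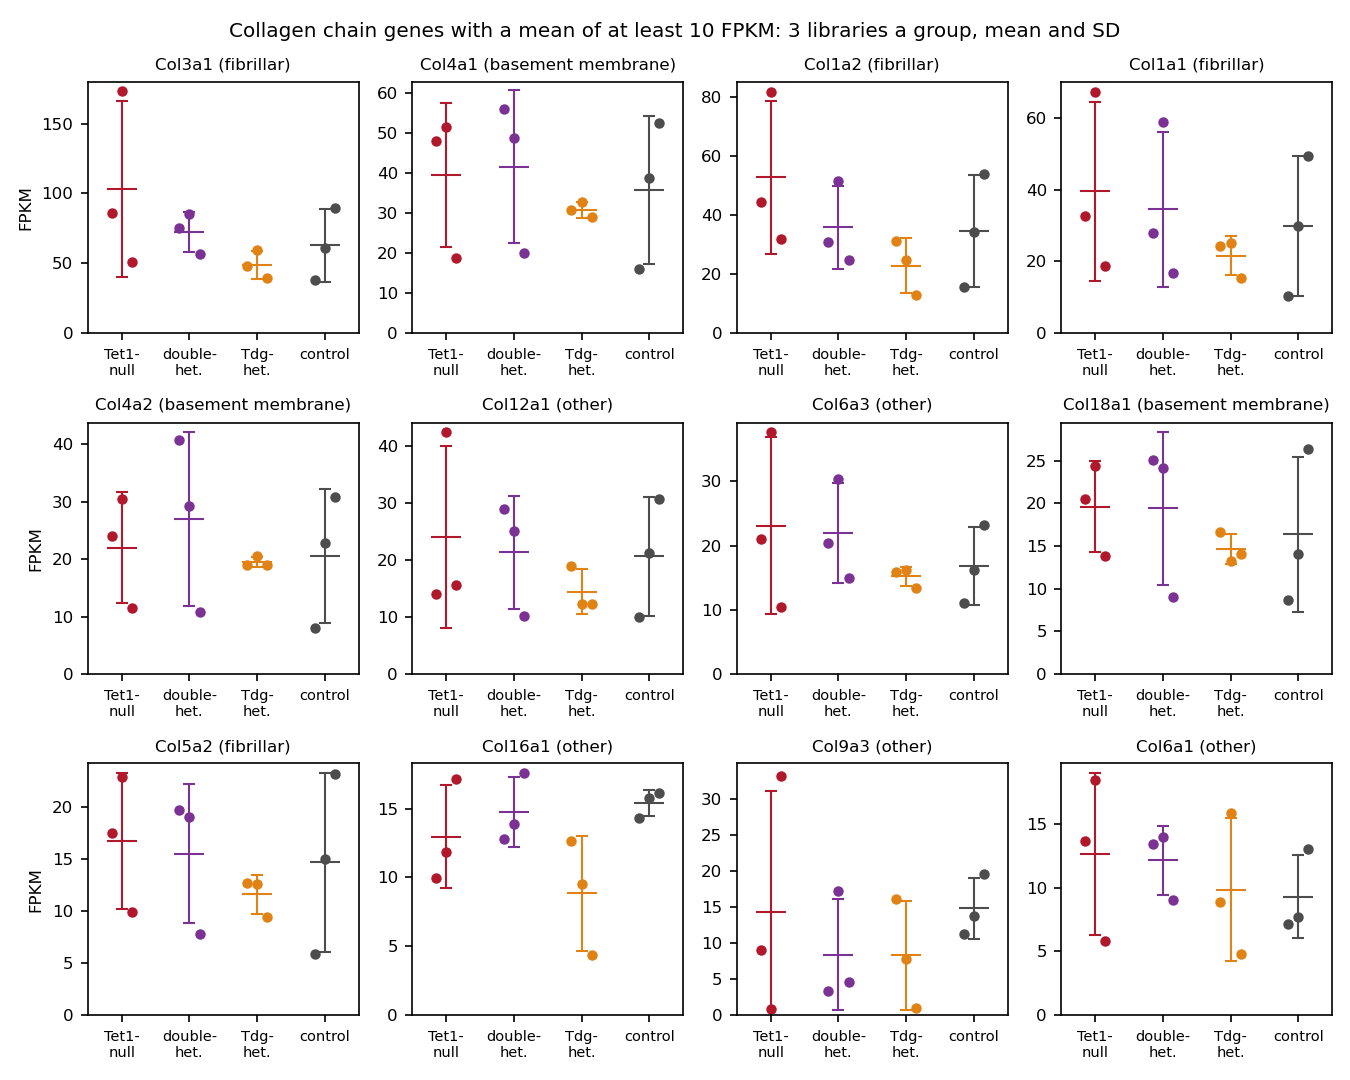
FPKM (y axis, linear from 0) of the 12 collagen chain genes with a mean of at least 10 FPKM, in Tet1-null, double-heterozygous, Tdg-heterozygous and control adenomas. Points are the 3 libraries of a group, the horizontal mark is the mean and the bars are the SD. In the Col3a1 panel, Tet1-null library 1 stands at 173 FPKM and control library 0 at 38.0 FPKM.

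Col4a1, Col4a2 and Col18a1 had wide ranges in the Tet1-null, double-heterozygous and control groups and narrow ones in the Tdg-heterozygous group. Col4a1 (ENSMUSG00000031502, chromosome 8, 11198423 to 11312826) had 48.0, 51.6 and 18.9 FPKM in Tet1-null, 56.1, 48.7 and 20.1 FPKM in double-heterozygous, 30.7, 32.7 and 28.9 FPKM in Tdg-heterozygous and 15.9, 38.7 and 52.5 FPKM in control libraries. Col4a2 (ENSMUSG00000031503, chromosome 8, 11312805 to 11449287) had 24.1, 30.4 and 11.4 FPKM in Tet1-null, 40.8, 29.3 and 10.8 FPKM in double-heterozygous, 19.0, 20.5 and 18.9 FPKM in Tdg-heterozygous and 7.99, 22.8 and 30.9 FPKM in control libraries. Tet1-null library 2, double-heterozygous library 2 and control library 0 were the lowest 3 for both chains.

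Col18a1 (ENSMUSG00000001435), whose protein is the source of the endostatin fragment, had 20.5, 24.4 and 13.8 FPKM in Tet1-null, 25.1, 24.1 and 9.06 FPKM in double-heterozygous, 16.7, 13.2 and 14.03 FPKM in Tdg-heterozygous and 8.66, 14.1 and 26.4 FPKM in control libraries. It was again low in double-heterozygous library 2 and control library 0. Col15a1, a chain of vascular and muscle basement membranes, ranged from 2.76 FPKM in double-heterozygous library 2 to 22.9 FPKM in Tet1-null library 1, and it had 5.03, 3.54 and 10.02 FPKM in Tdg-heterozygous libraries. The summed basement membrane chains had 72.2, 70.9 and 72.2 FPKM in the Tdg-heterozygous libraries, against 36.5 to 122 FPKM in control libraries. Endothelial marker genes, 8 of 8 in the table, summed to 25.7 to 105 FPKM in Tet1-null, 24.0 to 78.6 FPKM in double-heterozygous, 41.6 to 48.9 FPKM in Tdg-heterozygous and 21.9 to 56.4 FPKM in control libraries. Their part in these levels was not tested.

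Of the other chains, the type VI genes encode the beaded filaments that lie between fibrils and cells. Col6a1 (ENSMUSG00000001119) had 13.7, 18.4 and 5.80 FPKM in Tet1-null, 13.5, 13.95 and 9.05 FPKM in double-heterozygous, 8.89, 15.9 and 4.75 FPKM in Tdg-heterozygous and 7.11, 7.73 and 13.1 FPKM in control libraries. Col6a2 had 9.85, 15.4 and 4.75 FPKM in Tet1-null, 11.3, 10.5 and 8.63 FPKM in double-heterozygous, 7.22, 11.5 and 3.82 FPKM in Tdg-heterozygous and 5.57, 5.87 and 9.62 FPKM in control libraries. Both were lowest in Tdg-heterozygous library 2, which differs from the type IV chains.

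Col6a3 (ENSMUSG00000048126), the largest type VI chain, had 21.1, 37.8 and 10.5 FPKM in Tet1-null, 20.4, 30.4 and 15.03 FPKM in double-heterozygous, 15.9, 16.2 and 13.4 FPKM in Tdg-heterozygous and 11.0, 16.2 and 23.2 FPKM in control libraries. Col12a1 (ENSMUSG00000032332), which binds the surface of type I fibrils, had 14.01, 42.5 and 15.6 FPKM in Tet1-null, 28.9, 25.1 and 10.1 FPKM in double-heterozygous, 19.0, 12.2 and 12.2 FPKM in Tdg-heterozygous and 9.96, 21.3 and 30.7 FPKM in control libraries. Both had their highest value in Tet1-null library 1.

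Col16a1 (ENSMUSG00000040690), a fibril-associated collagen, showed another order of libraries. It had 9.92, 11.8 and 17.1 FPKM in Tet1-null, 12.8, 13.9 and 17.6 FPKM in double-heterozygous, 12.7, 9.51 and 4.38 FPKM in Tdg-heterozygous and 14.3, 15.8 and 16.1 FPKM in control libraries. Every Tdg-heterozygous library lay below every double-heterozygous and every control library. The 11 libraries other than Tdg-heterozygous library 2 lay between 9.51 and 17.6 FPKM.

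**Figure D2:**
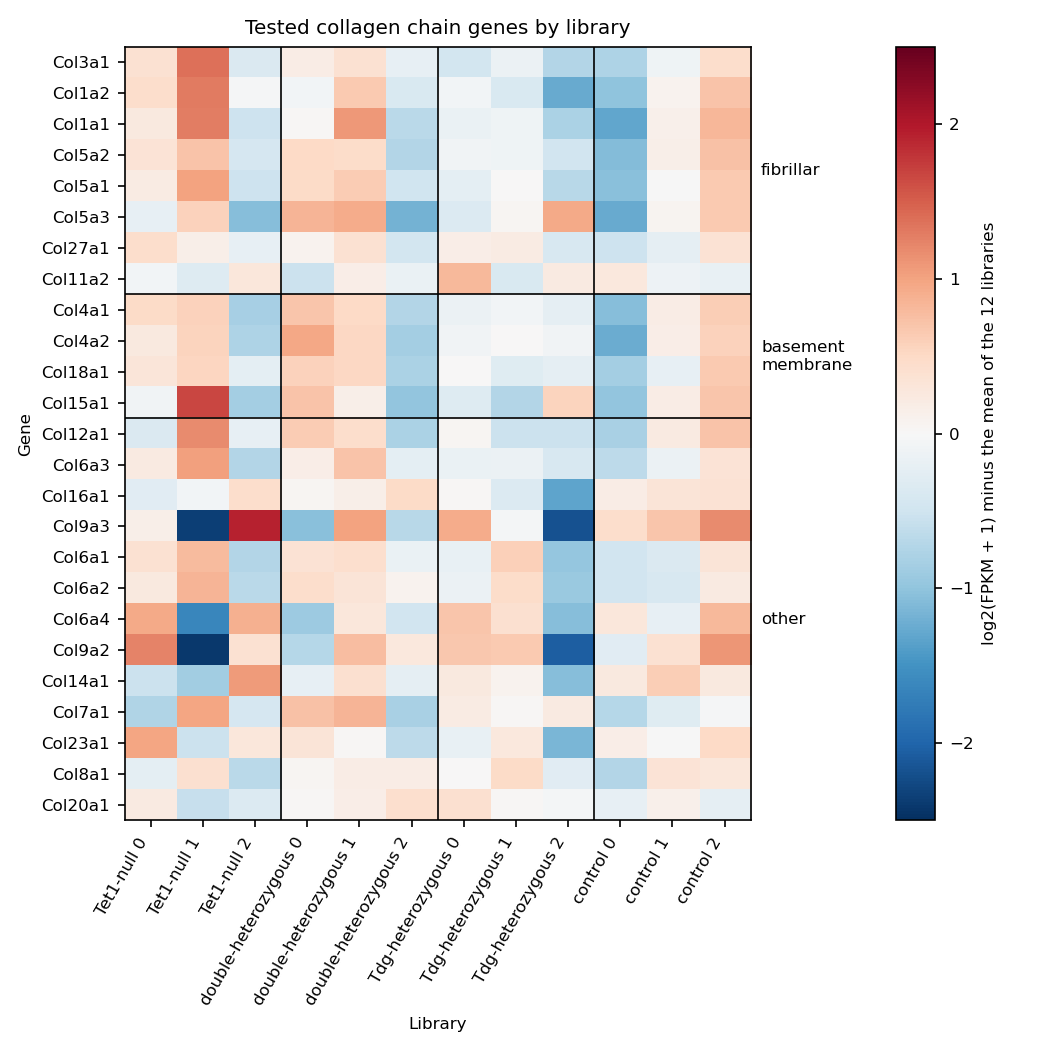
Log2(FPKM + 1) minus the mean of the 12 libraries (colour) for the 25 tested collagen chain genes (rows) in each library (columns, Tet1-null at the left and controls at the right). Tet1-null library 1 was the highest of 12 for 10 genes and control library 0 the lowest for 11, while Col9a2, Col9a3, Col6a4 and Col14a1 had their lowest 2 values in Tet1-null library 1 and Tdg-heterozygous library 2. Over all tested genes the shares were 16.4%, 4.49% and 13.5% in that order.

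Variation of the members was wider than that of most genes. Between the lowest and the highest library the 25 tested members varied 2.92-fold to 56.9-fold, with a median of 5.94-fold, against a median of 2.31-fold over the 14362 tested genes without a 0. Tet1-null library 1 was the highest of 12 for 10 members, and it was the highest for 16.4% of all 15150 tested genes. Control library 0 was the lowest of 12 for 11 members, 6 of them fibrillar and 3 of them basement membrane, and it was the lowest for 4.49% of all tested genes. Tdg-heterozygous library 2 was the lowest for 6 members, 5 of which are other chains, and it was the lowest for 17.4% of all tested genes.

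Marker genes of other cell types differed between the same libraries. The fibroblast list, 9 of 9 in the table and 2 of them also in the list of fibril-organising genes, summed to 552 FPKM in Tet1-null library 1, 436 FPKM in double-heterozygous library 0, 373 FPKM in Tdg-heterozygous library 2 and 310 FPKM in control library 2. It lay between 177 and 206 FPKM in the 8 others. In Tdg-heterozygous library 2, where the fibrillar chains summed to 90.1 FPKM, most of the list's sum was Gsn (198 FPKM) and Dcn (143 FPKM). Genes of the list went both ways in that library. Its Pdgfra (3.71 FPKM), Thy1 (2.96 FPKM) and Fbln1 (10.5 FPKM) were the lowest of the 12 libraries, while its Gsn and Pi16 (4.90 FPKM) were the highest. Dcn (239 FPKM) and Gsn (147 FPKM) also made up most of the sum of double-heterozygous library 0. The same held for Tet1-null library 1, with Dcn at 302 FPKM and Gsn at 166 FPKM. Other genes of the list were mixed there. Fbln1 stood at 16.5 and 16.3 FPKM in these libraries, against up to 36.6 FPKM elsewhere. Lum was lowest in the former (1.38 FPKM), while Dpt (28.6 FPKM) and Mfap5 (2.69 FPKM) were highest in the latter. The smooth muscle list, 9 of 9 in the table, summed to 89.9 to 690.4 FPKM in Tet1-null, 122 to 139.7 FPKM in double-heterozygous, 55.0 to 166 FPKM in Tdg-heterozygous and 90.3 to 212 FPKM in control libraries, highest in Tet1-null library 1 and lowest in Tdg-heterozygous library 2. The pericyte list, 6 of 6 in the table, ran from 12.1 FPKM in Tdg-heterozygous library 2 to 52.8 FPKM in Tet1-null library 1. The epithelial list, 9 of 9 in the table, was highest in Tdg-heterozygous library 2 (13474 FPKM) and Tet1-null library 1 (10015 FPKM) and lay as low as 3002 FPKM, and the leukocyte list, 6 of 6, from 46.5 to 113 FPKM. The part of these cells in the collagen values was not tested.

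For 3 pairs of chains that build one trimer, the ratio within the pair varied less than the levels did. The ratio of Col4a1 to Col4a2 was 1.99, 1.70 and 1.65 in Tet1-null, 1.37, 1.66 and 1.85 in double-heterozygous, 1.61, 1.59 and 1.53 in Tdg-heterozygous and 1.99, 1.70 and 1.70 in control libraries. It varied 1.45-fold over the 12 libraries, while Col4a1 varied 3.53-fold and Col4a2 5.11-fold. The reads carry no strand, so those of the few bases that both genes cover at their shared start cannot be assigned.

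The ratio of Col6a1 to Col6a2 was 1.39, 1.20 and 1.22 in Tet1-null, 1.19, 1.33 and 1.05 in double-heterozygous, 1.23, 1.38 and 1.24 in Tdg-heterozygous and 1.28, 1.32 and 1.36 in control libraries. It varied 1.32-fold, while the genes varied 3.88-fold and 4.04-fold. The ratio of Col1a1 to Col1a2 was 0.729, 0.821 and 0.586 in Tet1-null, 0.903, 1.13 and 0.676 in double-heterozygous, 0.778, 1.02 and 1.18 in Tdg-heterozygous and 0.663, 0.866 and 0.918 in control libraries. It varied 2.01-fold, against 6.44-fold for Col1a1 and 6.31-fold for Col1a2. This was not so for every pair of one type, since the ratio of Col6a4 to Col6a2 varied 29.3-fold, while these genes varied 9.32-fold and 4.04-fold. The groups overlapped in the Col6a1 to Col6a2 and Col1a1 to Col1a2 ratios. In the Col4a1 to Col4a2 ratio the 3 Tdg-heterozygous libraries lay below every Tet1-null and every control library and within the double-heterozygous range. This difference was seen after the ratios were computed and was not tested. How often ratios of other gene pairs separate in this way was not computed.

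**Figure D3:**
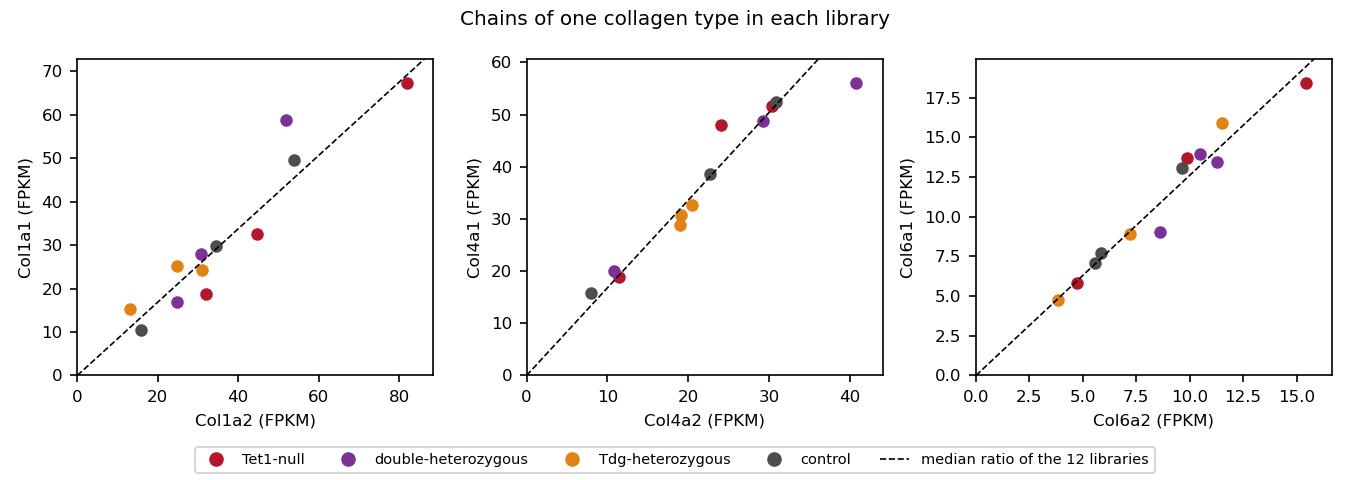
FPKM of Col1a1 against Col1a2, Col4a1 against Col4a2 and Col6a1 against Col6a2, with 1 point per library coloured by group and linear axes from 0. A line marks the median ratio, which was 0.844, 1.68 and 1.26 in that order. The ratios run from 0.586 to 1.18, from 1.37 to 1.99 and from 1.05 to 1.39 in the same order.

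A further 3 chains, Col9a2, Col9a3 and Col6a4, were lowest in Tet1-null library 1 and were singled out after their values were seen. They did not run opposite to the fibrillar chains throughout. In the Tdg-heterozygous group they were lowest in library 2, as were Col1a1, Col1a2 and Col3a1. In controls Col9a2 and Col9a3 rose from library 0 to library 2, as Col1a1 did. Col9a2 (ENSMUSG00000028626), a chain of type IX collagen, which is best known from cartilage, had 14.8, 0.260 and 7.63 FPKM in Tet1-null, 3.09, 10.4 and 6.999 FPKM in double-heterozygous, 9.65, 9.54 and 0.599 FPKM in Tdg-heterozygous and 4.44, 7.65 and 13.2 FPKM in control libraries. Col9a3 (ENSMUSG00000027570), its partner, had 8.97, 0.774 and 33.2 FPKM in Tet1-null, 3.40, 17.2 and 4.59 FPKM in double-heterozygous, 16.1, 7.76 and 0.989 FPKM in Tdg-heterozygous and 11.2, 13.7 and 19.5 FPKM in control libraries. In Tet1-null library 1, where Col1a1, Col1a2 and Col3a1 were at their highest, both type IX chains were at their lowest. Tet1-null library 1 and Tdg-heterozygous library 2 were the lowest pair for Col9a2, Col9a3, Col6a4 and Col14a1, 4 of 25 members, and for 13.5% of all tested genes.

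Col6a4 (ENSMUSG00000032572), a type VI chain, had 13.6, 1.46 and 13.2 FPKM in Tet1-null, 3.05, 8.32 and 4.48 FPKM in double-heterozygous, 11.3, 9.05 and 2.66 FPKM in Tdg-heterozygous and 8.23, 5.60 and 12.4 FPKM in control libraries. Its lowest 3 libraries were the 3 with the lowest Axin2, and this held for Col9a2 and Col9a3 as well. It also held for 10.1% of all tested genes, so 3 of 25 members is near the background. Col9a2 and Col9a3 had the widest ranges among the members, 56.9-fold and 42.8-fold. The third type IX gene, Col9a1, averaged 0.183 FPKM, and the ratio of Col9a3 to Col9a2 varied 7.17-fold, from 0.606 in Tet1-null library 0 to 4.34 in Tet1-null library 2. Of 6 cartilage markers Sox9 alone, which intestinal epithelium also expresses, had a mean of at least 1 FPKM, and the cartilage proteoglycan gene Acan was at most 0.0305 FPKM.

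**Figure D4:**
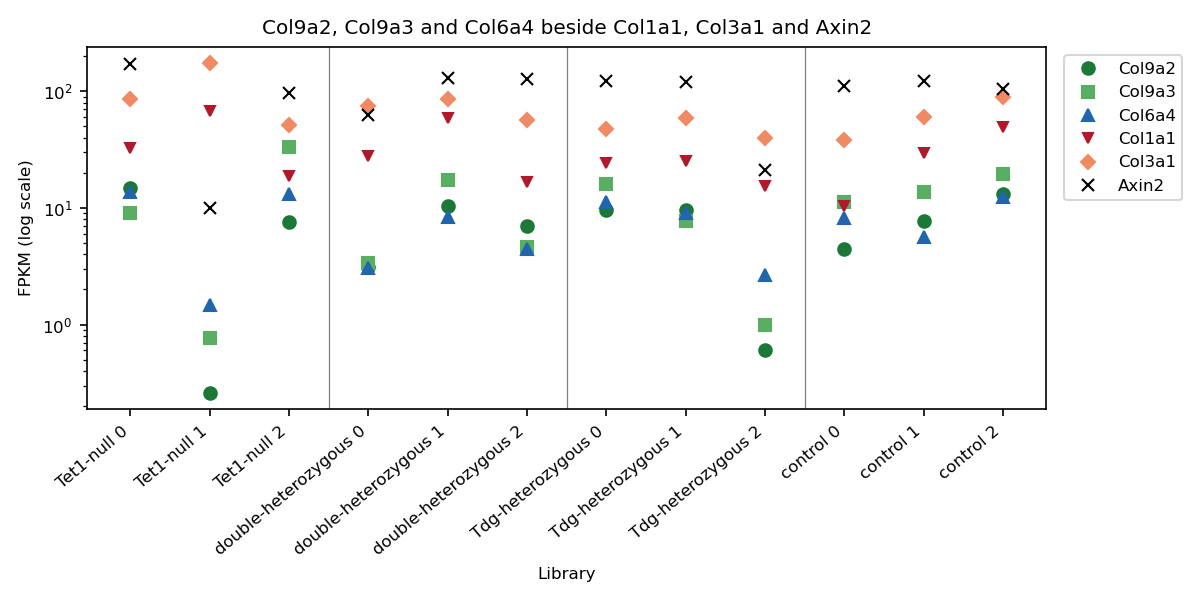
FPKM (y axis, log scale) of Col9a2, Col9a3, Col6a4, Col1a1, Col3a1 and Axin2 in each of the 12 libraries (x axis, Tet1-null at the left, controls at the right). In Tet1-null library 1, Col9a2 is at 0.260 FPKM and Axin2 at 9.98 FPKM, while Col3a1 is at 173 FPKM.

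Differences between the groups were estimated by limma on log2(FPKM + 1) in 1 fit of all 12 libraries, with p-values adjusted by the Benjamini-Hochberg method over all 15150 tested genes. The threshold for a call was an adjusted p of 0.05, and a log2 difference is the group named first minus the other. Collagen chain genes were not called in any comparison. Standard errors of the log2 differences had a median of 0.50 over the members and 0.26 over all tested genes, so a member's interval was usually wide. The comparisons with controls share the 3 control libraries.

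Tet1-null against control adenomas asks what loss of both Tet1 alleles changes. Of the 25 tested members, 0 were called, against 0.0132% of all tested genes. An unadjusted p under 0.05 was reached by 0 members and by 1.63% of all tested genes. The members with the smallest p were Col3a1, with a log2 difference of 0.62 (95% interval -0.33 to 1.57, limma unadjusted p = 0.178), and Col1a2, with 0.64 (-0.48 to 1.77, limma unadjusted p = 0.232). Next was Col14a1, a fibril-associated chain, which had 1.94, 1.32 and 7.95 FPKM in Tet1-null and 4.01, 5.55 and 4.04 FPKM in control libraries, a log2 difference of -0.48 (-1.59 to 0.63). All 3 had an adjusted p of 1. The groups overlapped for every member, while 3.44% of all tested genes did not overlap in the higher direction and 2.2% in the lower.

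Of the members 16 had a log2 difference above 0 and 9 below, against 55% and 44.9% of all tested genes, and the medians were 0.33 for fibrillar, 0.23 for basement membrane and -0.13 for other chains, against 0.029 for all genes. Without control library 0 the fibrillar median was -0.013 and the basement membrane median -0.25. Without the 3 libraries of lowest Axin2, 13 of 25 members were above 0, and the basement membrane median was -0.091, as it was without Tet1-null library 1 alone. The median of other chains was between 0.00043 and 0.035 without Tet1-null library 1, Tet1-null library 2 or control library 2, each left out alone.

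Double-heterozygous against control adenomas, which differ by 1 allele of each gene, also gave 0 members called, against 0.0198% of all tested genes, and 0 members with an unadjusted p under 0.05, against 1.17%. The smallest p belonged to Col20a1, Col6a2 and Col7a1. Col20a1, a low fibril-associated chain, had 0.913, 1.13 and 1.53 FPKM in double-heterozygous and 0.636, 1.05 and 0.615 FPKM in control libraries, a log2 difference of 0.31 (95% interval -0.24 to 0.86). For Col6a2 the log2 difference was 0.50 (-0.43 to 1.43). Col7a1, the anchoring fibril chain beneath epithelia, had 3.94, 4.39 and 0.700 FPKM in double-heterozygous and 0.826, 1.41 and 1.93 FPKM in control libraries, a log2 difference of 0.60 (-0.54 to 1.74). The groups overlapped for each, and the adjusted p was 1.

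Members without overlap numbered 0, against 5.78% of all tested genes in the higher and 2.01% in the lower direction. Of the members 18 were above 0 and 7 below, against 58.4% and 41.5% of all tested genes. The medians were 0.21 for fibrillar, 0.24 for basement membrane and 0.05 for other chains, the last being -0.0049 under median-ratio scaling and -0.0079 over chains averaging 5 FPKM or more. Leaving out control library 0 gave -0.14 for fibrillar, -0.20 for basement membrane and -0.18 for other chains. Without double-heterozygous library 1 the fibrillar median was -0.046 and that of other chains -0.035, and the basement membrane median was -0.014 without double-heterozygous library 0. All double-heterozygous libraries had Xist at most 0.237 FPKM, so sex was not balanced in this comparison, and with a term for Xist the fibrillar median was 0.21 and 0 members were called.

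Tdg-heterozygous against control adenomas asks what 1 catalytic-mutant Tdg allele changes. Again 0 members were called, against 0.0198% of all tested genes. An unadjusted p under 0.05 was reached by 1 member, Col16a1, and by 0.898% of all tested genes. Col16a1 averaged 8.85 ± 4.18 FPKM in Tdg-heterozygous and 15.4 ± 0.97 FPKM in control adenomas (SD, n = 3 each), a log2 difference of -0.84 (SE 0.32, 95% interval -1.54 to -0.13, limma unadjusted p = 0.0244, adjusted p = 1). The groups did not overlap for Col16a1, as for 2.4% of all tested genes in this direction. Without Tdg-heterozygous library 2 its log2 difference was -0.45.

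Col7a1 had 2.46, 2.04 and 2.51 FPKM in Tdg-heterozygous libraries, all above the highest control value of 1.93 FPKM, and its log2 difference was 0.51 (95% interval -0.63 to 1.65). Non-overlap in that direction was seen for 1.61% of all tested genes. Col23a1, a transmembrane collagen, had 1.56, 2.504 and 0.325 FPKM in Tdg-heterozygous and 2.26, 1.89 and 3.10 FPKM in control libraries, a log2 difference of -0.57 (-1.57 to 0.44). Col14a1 had 4.06, 3.52 and 1.04 FPKM in Tdg-heterozygous libraries and a log2 difference of -0.61 (-1.72 to 0.51). In both, Tdg-heterozygous library 2 was the lowest of 12, as it was for 6 of the 25 tested members and for 17.4% of all tested genes.

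Of the members 8 were above 0 and 17 below, against 47.1% and 52.8% of all tested genes, with medians of -0.16 for fibrillar, -0.04 for basement membrane and -0.28 for other chains. Without control library 2 the fibrillar median was 0.22 and the basement membrane median 0.33, and without Tdg-heterozygous library 2 the median of other chains was 0.25. Without the 3 libraries of lowest Axin2, 13 members were above 0 and 12 below. The basement membrane median was 0.059 without Tdg-heterozygous library 1 and 0.035 without control library 1.

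Double-heterozygous against Tdg-heterozygous adenomas differ by 1 Tet1 allele. Here 0 members were called, against 0% of all tested genes, and the unadjusted p was under 0.05 for 1 member and for 1.52% of all tested genes. That member was Col16a1, at 14.8 ± 2.54 FPKM in double-heterozygous and 8.85 ± 4.18 FPKM in Tdg-heterozygous adenomas (SD, n = 3 each), a log2 difference of 0.77 (SE 0.32, 95% interval 0.06 to 1.47, limma unadjusted p = 0.0355, adjusted p = 1). The groups did not overlap, as for 4.7% of all tested genes in this direction, and without Tdg-heterozygous library 2 the log2 difference was 0.38. Both comparisons use the same Tdg-heterozygous libraries. Next by p were Col3a1, with a log2 difference of 0.56 (-0.39 to 1.51), and Col1a2, with 0.64 (-0.49 to 1.77).

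In this comparison 22 members were above 0 and 3 below, against 59.9% and 40.1% of all tested genes, and the medians were 0.40, 0.27 and 0.24 for fibrillar, basement membrane and other chains. When the 3 libraries of lowest Axin2 were left out, 12 of 25 were above 0 and the medians were 0.10, -0.0051 and -0.076 in the same order of classes. Of single libraries, the basement membrane median was -0.043 without double-heterozygous library 0 and the median of other chains was -0.010 without Tdg-heterozygous library 2. A test for any difference among the 4 groups called 0 members, against 0.0264% of all tested genes, and gave 0 members an unadjusted p under 0.05, against 0.917%. Its smallest p-values among members were for Col16a1 (limma unadjusted p = 0.0889), Col1a2 (0.224) and Col3a1 (0.239), each with an adjusted p of 1.00.

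**Figure D5:**
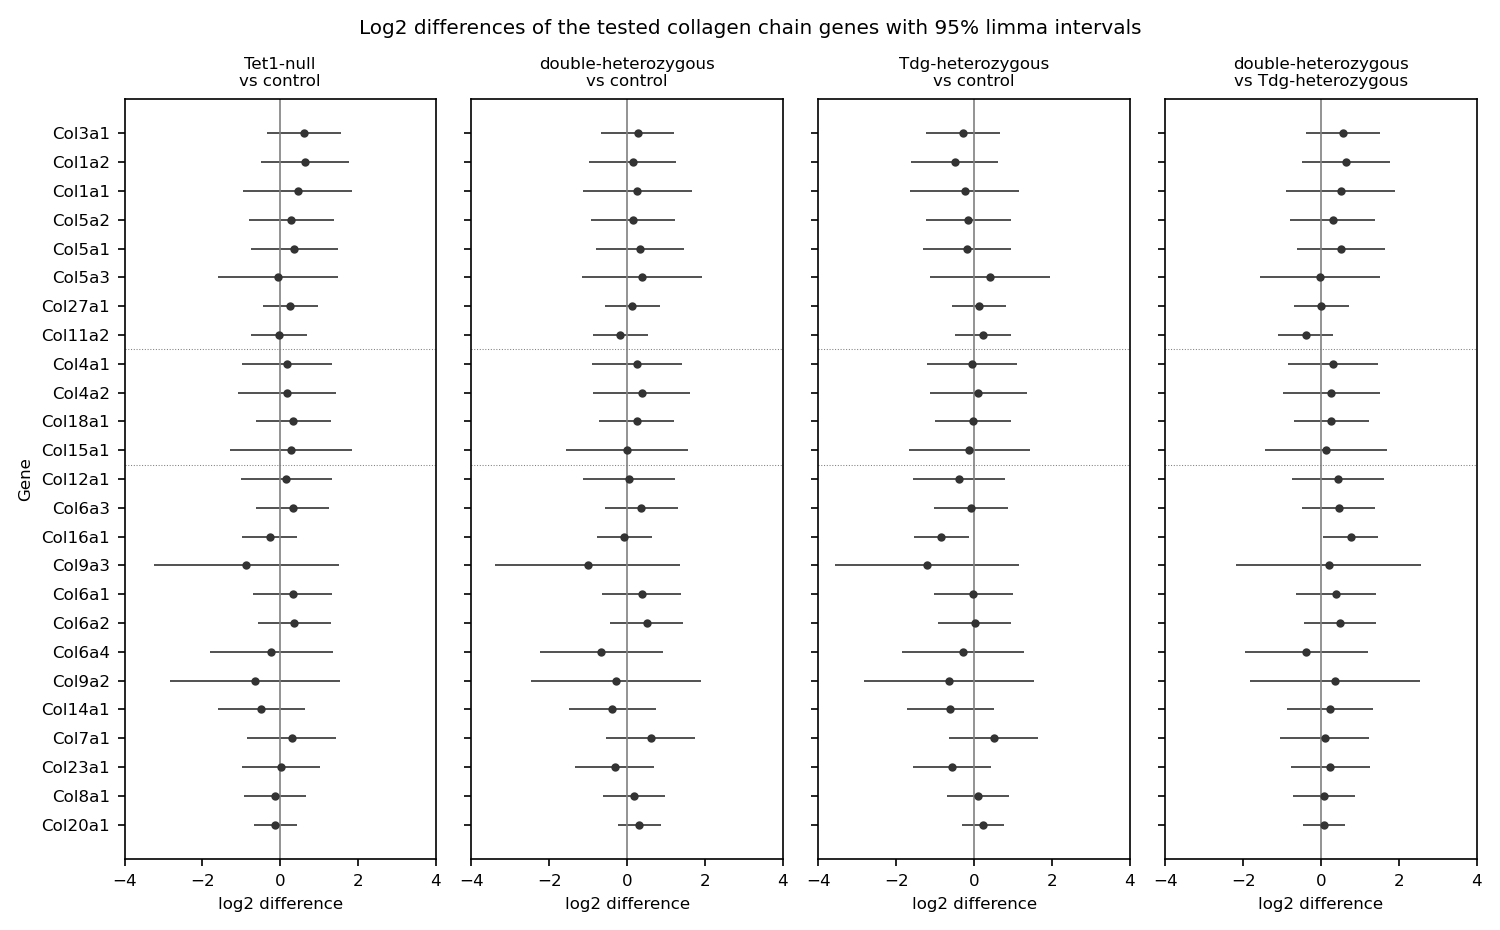
Log2 differences (x axis, points) with 95% limma intervals (bars) of the 25 tested collagen chain genes (y axis) in the 4 comparisons, where a positive value is higher in the group named first. The Col16a1 interval lies off 0 in the Tdg-heterozygous comparisons, and the widest intervals belong to Col9a3, for example -3.24 to 1.503 in Tet1-null against control.

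On chromosome 10 there are 5 members together with Tet1 and Tdg, where flanking sequence can travel with an allele. Col13a1, a transmembrane chain, lies 0.826 Mb from Tet1 and did not reach the filter. It had 0.663, 0.840 and 0.218 FPKM in Tet1-null and 1.40, 1.13 and 0.283 FPKM in double-heterozygous libraries. The values were 0.599, 0.456 and 0.589 FPKM in Tdg-heterozygous and 0.242, 0.737 and 0.811 FPKM in control libraries. Col18a1, Col6a1 and Col6a2 lie 5.46 to 6.01 Mb from Tdg. Their log2 differences between Tdg-heterozygous and control adenomas were -0.02, -0.02 and 0.02, with 95% intervals of -0.99 to 0.95, -1.04 to 1.00 and -0.92 to 0.95. These genes lie 13.7 to 14.1 Mb from Tet1. Between Tet1-null and control adenomas they differed by 0.34 (-0.63 to 1.31), 0.32 (-0.70 to 1.34) and 0.37 (-0.57 to 1.30). Between double-heterozygous and control adenomas they differed by 0.24, 0.37 and 0.50. Col10a1 lies 28.4 Mb from Tet1 and did not reach the filter (mean 0.137 FPKM).

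Genes that act on collagen were also read from lists. Collagen-modifying enzymes and chaperones work in the endoplasmic reticulum, and 15 of 17 in the table were tested. The most abundant was P4hb, a subunit of prolyl 4-hydroxylase, with a mean of 444 FPKM and a range of 346 to 561 FPKM. None of the 15 was called, and the smallest p of the 4-group test belonged to Crtap (limma unadjusted p = 0.131) and Leprel1 (0.185), both parts of the prolyl 3-hydroxylase family or its complex. Genes of processing and cross-linking had 7 of 12 tested and 0 called, with Pcolce, the enhancer of procollagen C-proteinase, at a mean of 13.3 FPKM. Of collagen receptors 8 of 10 were tested and 0 called, led by the integrin gene Itgb1 at a mean of 181 FPKM.

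Fibril-organising proteoglycans and glycoproteins had 8 of 10 tested and 0 called. The proteoglycan gene Dcn was the most abundant with a mean of 127 FPKM, and it was at its highest, 302 FPKM, in Tet1-null library 1. Thbs2, a matricellular thrombospondin, had the smallest p of the 4-group test in any of these lists (limma unadjusted p = 0.0635, adjusted p = 1). It had 11.71, 3.62 and 19.4 FPKM in Tet1-null, 34.1, 33.6 and 23.2 FPKM in double-heterozygous, 20.04, 21.1 and 9.85 FPKM in Tdg-heterozygous and 15.3, 35.3 and 23.6 FPKM in control libraries. In contrast to Col3a1, it was at its lowest in Tet1-null library 1. Of basement membrane partners, 13 of 15 were tested and 0 called. The smallest p of the 4-group test among them belonged to the laminin gene Lamb1 (limma unadjusted p = 0.241) and to Hspg2, which encodes perlecan (0.374). Hspg2 ranged from 10.98 to 30.0 FPKM and was highest in Tet1-null library 1. Across all 5 lists 0 genes were called in any comparison.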

How the data were processed

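Per the labels, colonic adenomas were lysed in TRIzol, 500 ng of their total RNA entered a TruSeq library kit (V2), and single-end reads of 75 nt were aligned to mm10 with TopHat2. Per the submitters' processing notes, Cufflinks and Cuffdiff were also used, with versions not given in the sources used here. The authors' deposited values are FPKM per gene, not counts, so the read depth is unknown and no counting error can be given. Columns were tied to groups, not to labelled replicates, and 0 columns of per-sample values were left unused.

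Genes with at least 1 FPKM in at least 3 of 12 libraries were tested as log2(FPKM + 1), a scale that understates changes of low genes, with limma 3.58.1 in R 4.3.3. The fit had 4 group means, no covariate and a variance trend, and 4 contrasts plus a 4-group F test were taken, two-sided and adjusted by the Benjamini-Hochberg method. The fit was also run on simulated data in which each gene varied independently of the others. That run does not check shifts that many genes of a library share. Members named with a value in every library have a mean of at least 10 FPKM or are among the 3 with the smallest p of a comparison. In addition Col9a2 and Col6a4 were chosen after their values were seen. Members, lists and settings were chosen with earlier results of these data known. The alternatives were a pseudocount of 0.1 or of 5, no filter on low values, a mean of at least 5 FPKM, equal totals, median-ratio scaling, only the groups compared, and leaving out each library. Leaving out the 3 libraries of lowest Axin2 and a term for Xist above 10 FPKM were added after seeing the data. Coordinates are from GENCODE M21 (mm10), and promoters from RefSeq. One result that the naming rule would give is not reported here. Lists use the older symbols Lepre1, Leprel1 and Leprel2 where the table does.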

Additional observations from a re-analysis of the deposited data

How the results depend on the processing

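No collagen chain gene was called under any setting or with any library left out, and the lowest adjusted p of a member in any of these limma fits was 0.770 (Col3a1, Tet1-null against control, without Tet1-null library 0). Numbers of genes called over the whole table are small and moved. Between Tet1-null and control adenomas 2 genes passed, and this became 1 with a pseudocount of 5, 4 with no filter, 0 with a mean of at least 5 FPKM, 1 with only the groups compared, 6 without the 3 libraries of lowest Axin2 and 1 with the Xist term, and 1 to 3 with each library left out. At a mean of at least 5 FPKM, limma gave 147 genes an unadjusted p under 0.05. Between double-heterozygous and control adenomas 3 became 5 with no filter, 12 with only the groups compared and 8 without the 3 libraries, and 2 to 5 with each library left out. Between Tdg-heterozygous and control adenomas 3 became 1 with a mean of at least 5 FPKM, 6 with only the groups compared and 5 without the 3 libraries, and 2 to 5 on leaving out a library. Between double-heterozygous and Tdg-heterozygous adenomas 0 became 1 with only the groups compared and 2 without the 3 libraries, and 0 to 2 on leaving out a library. For the 4-group test 4 became 1 with a mean of at least 5 FPKM and 9 without the 3 libraries, and 3 to 6 on leaving out a library. Some of these settings use fewer genes or samples, and the cause of the moves was not tested for any setting.

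Class medians moved by less than the spread between replicates, an SD of 0.65 for fibrillar, 0.66 for basement membrane and 0.80 for other chains. That SD is of the class level in single libraries and exceeded every class median difference itself, so a smaller move does not show stability. The sign of the class medians changed with a single library left out. The exception was the fibrillar median between double-heterozygous and Tdg-heterozygous adenomas, which ran from 0.074 to 0.71. The number of members above 0 ran from 8 to 19 in Tet1-null, 5 to 19 in double-heterozygous and 3 to 17 in Tdg-heterozygous adenomas against controls as each library was left out, and from 16 to 22 in double-heterozygous against Tdg-heterozygous adenomas. Equal totals shifted the median of all genes to -0.10 between Tdg-heterozygous and control adenomas and to 0.11 between double-heterozygous and Tdg-heterozygous adenomas, and the medians of fibrillar chains were then -0.25 and 0.46. No paired analysis was possible because the table counts its columns from 0 in each group and does not tie them to the replicates the labels number. With 3 libraries a group and unknown read depth, values of members under 1 FPKM give no order between groups.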
